A study of Homo sapiens with 3 samples.

Results

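Homologous recombination and the Fanconi anaemia pathway repair DNA breaks and crosslinks that other repair routes cannot handle. The 36 genes described here comprise 20 homologous recombination genes and 16 Fanconi anaemia genes, out of 20162 protein-coding genes on the 24 chromosomes of the annotation used. The genes were listed by their known roles, with earlier results of these data known, and all 36 were found in the annotation. Chromatin binding of YTHDC1, a nuclear reader of the RNA mark N6-methyladenosine (m6A), was measured by ChIP-seq in A549, an established human lung adenocarcinoma cell line. There was a single group, wild-type cells with no treatment named, in 3 replicates whose reads the authors pooled before 6368 peaks were called. No spread between replicates can therefore be given, the depth of each sample is unknown, and no label says whether the replicates were separate cultures. The peaks were read without an input, an IgG or a knockdown library, that is, without a background measured in parallel.

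In homologous recombination, the ends of a double-strand break are trimmed to single strands, a recombinase is loaded onto them, and the intact sister copy is used as template. In the Fanconi anaemia pathway, an anchor recruits a core ubiquitin ligase complex to a blocked replication fork, where FANCD2 and FANCI are ubiquitinated. Nucleases then unhook the crosslink, and the resulting break is passed to homologous recombination. Inherited loss of some of these genes is known for predisposition to breast and ovarian cancer. Inherited loss of some, not always different ones, is known for Fanconi anaemia itself, a bone marrow failure syndrome. The split into 20 and 16 genes used here was made by role, not by disease.

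A gene was counted as having a start peak when a YTHDC1 peak overlapped, by 1 base or more, the 200 bases on either side of any of its annotated transcript starts. This was the case for 13 of the 36 genes (36.1%), against 15.7% of all protein-coding genes. Among homologous recombination genes, the 8 of 20 with a start peak (40%) were BRCA1, RBBP8, RAD50, NBN, RAD51C, XRCC2, RAD52 and BLM. Among Fanconi anaemia genes they were FANCA, FANCC, FANCF, FANCI and FAN1, 5 of 16 (31.2%). FANCC had 2 such peaks, so that 14 peaks were involved. FANCD2 had peaks only inside the gene, and the other 22 genes (61.1%) had a peak neither at a start nor in the gene body, against 77.4% of protein-coding genes.

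Most of these start peaks were weak. The value deposited with each peak is read here as −log10 of its q-value, so that a larger value means a better supported peak. The 14 start peaks had a median of 1.12 and ranged from 0.76 to 5.30, against a median of 1.39 over 2998 distinct start peaks of protein-coding genes. Only 3 of the 14 (21.4%) had a q-value under 0.05, against 55.6% of those 2998 peaks. Counting such peaks alone left 3 of the 36 genes, NBN, RAD52 and FANCA (8.33%), against 8.96% of protein-coding genes, a share close to the background. The start peaks of the 36 genes were 226 to 718 bases wide, with a median of 317 bases, against 373 bases for the protein-coding genes.

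**Figure D1:**
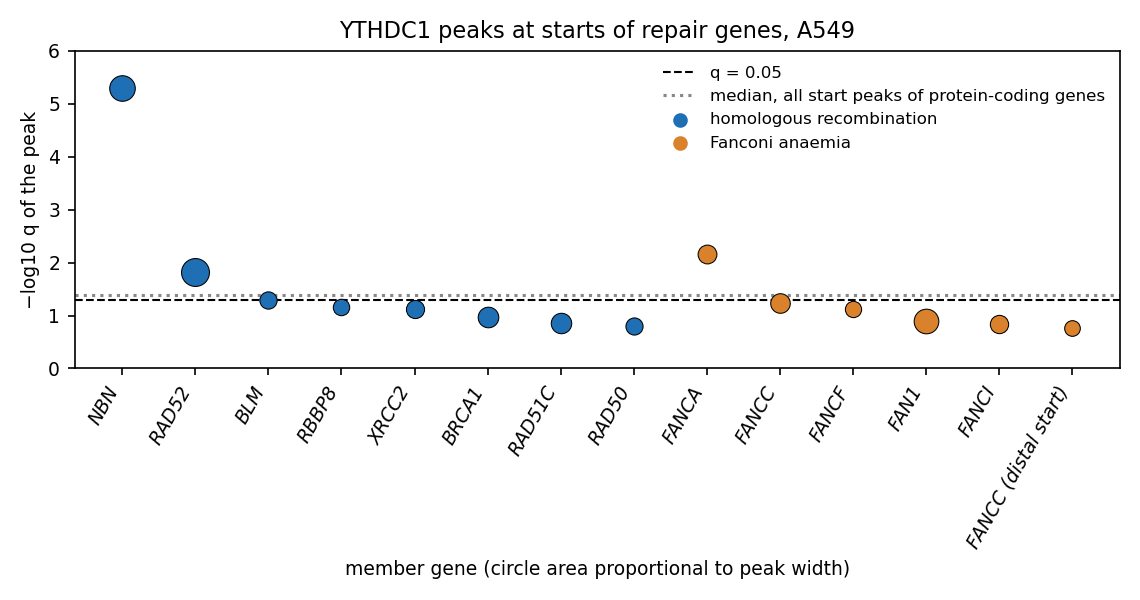
The vertical axis gives −log10 q of each of the 14 start peaks, 1 circle per peak with its area proportional to peak width, ordered by value within homologous recombination (blue) and Fanconi anaemia (orange). NBN stands apart at 5.30, only NBN, RAD52 and FANCA lie above the dashed line at q = 0.05, and the dotted line marks the protein-coding median of 1.39.

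Of the 8 genes for end resection and the BRCA1 complexes, 4 had a start peak (NBN, RAD50, RBBP8 and BRCA1). NBN, the subunit of the MRE11-RAD50-NBN complex that recruits damage signalling to breaks, had the best supported peak of all 36 genes. It lay at chr8:90996247-90996849 in hg19, the build of all positions given here, was 603 bases wide, and had a value of 5.30 (q = 4.99e-06). This ranked 149th of the 6368 peaks, and 98% of the protein-coding start peaks had a lower value. The partners of NBN in this complex had a weaker peak or none. RAD50, which bridges the broken ends, had a peak with a value of 0.81 (q = 0.156), at chr5:131892914-131893184. MRE11, the nuclease of the complex, had no peak nearer than 49971 bases from a start.

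RBBP8, which encodes the CtIP protein that starts resection with MRE11, had a 248-base peak with a value of 1.16 at chr18:20513309-20513556. Its starts lie within reach of the same peak as those of the microRNA gene MIR4741 and a further annotated gene, and a peak there cannot be assigned to 1 of them. BRCA1, the ubiquitin ligase that favours resection, had a peak of 391 bases with a value of 0.97 (q = 0.107) at chr17:41276940-41277330. The long non-coding gene NBR2 starts on the opposite strand 187 bases upstream of the canonical BRCA1 start, the transcript start that the annotation marks as representative. BARD1, the obligate partner of BRCA1, had its nearest peak 1689234 bases from a start. BRIP1, a helicase that binds BRCA1, had none within 63705 bases, and DNA2, a resection nuclease, none within 12199 bases.

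Of the 10 genes for recombinase loading and strand exchange, RAD51C, XRCC2 and RAD52 had a start peak. RAD52, which anneals single strands, had the widest of the 14 peaks, 718 bases at chr12:1058162-1058879, with a value of 1.81 (q = 0.0154). RAD51C and XRCC2 encode recombinase paralogs that assist filament assembly. The RAD51C peak, at chr17:56769721-56770105, was 385 bases wide with a value of 0.86. The XRCC2 peak, at chr7:152372792-152373094, was 303 bases wide with a value of 1.12. The other paralogs RAD51B, RAD51D and XRCC3 had no start peak. Nor did BRCA2, which loads the recombinase, PALB2, which links BRCA2 to BRCA1, the translocase gene RAD54L or the accessory factor gene RAD51AP1. Of the helicases that act on recombination intermediates, BLM had a 275-base peak at chr15:91260714-91260988 with a value of 1.296, just short of the threshold (q = 0.0506), and WRN had none.

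Within the Fanconi anaemia core complex, 3 of 9 genes had a start peak. FANCA, the subunit most often mutated in the disease, had the best supported one, 326 bases at chr16:89883183-89883508 with a value of 2.16 (q = 0.00694). FANCC, a subunit of the same complex, had a peak of 353 bases and value 1.23 at its canonical start (chr9:98079728-98080080). A second FANCC peak, 226 bases wide with a value of 0.76, had its midpoint at -109102 bases, at another annotated start far upstream (chr9:98188981-98189206) and was the weakest of the 14. FANCF, an adaptor of the complex encoded by a single exon, had a 243-base peak with a value of 1.12 at chr11:22647013-22647255. An annotated start of the neighbouring gene GAS2 is within reach of that peak as well. FANCB, FANCE, FANCG, FANCL, the catalytic subunit, FAAP20 and FAAP100 had none.

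Downstream of the core complex, FANCI, a ubiquitinated substrate, had a 308-base peak with a value of 0.85 at chr15:89786976-89787283. FAN1, a nuclease of crosslink repair, had a 560-base peak with a value of 0.89 at chr15:31195738-31196297. Neither reached a q-value of 0.05. The anchor genes FANCM and FAAP24, the ubiquitin-conjugating enzyme gene UBE2T and the nuclease scaffold gene SLX4 had no start peak.

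FANCD2, the partner of FANCI, was the gene nearest to the window without being inside it. Its first peak, 256 bases at chr3:10068628-10068883 with a value of 1.85 (q = 0.0143), began 445 bases from the nearest start and lay 598 bases into intron 1. A second, 296 bases at chr3:10083993-10084288 with a value of 1.46 (q = 0.0343), lay in intron 10 of 43. Both FANCD2 peaks were thus better supported than 11 of the 14 start peaks. The only other body peak, inside the annotated span of NBN, was 496 bases wide with a value of 2.87. It had its midpoint at -16583 bases, upstream of the canonical NBN start, and lay within 200 bases of a start of the neighbouring gene DECR1. Body peaks occurred in 2 of the 36 genes, against 8.66% of protein-coding genes. Per megabase of gene span there were 0.853 body peaks in the 36 genes and 1.49 in protein-coding genes.

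Inside the window, the peak edges nearest to a start were those of XRCC2 at 132 bases, FANCF at 114 bases, BLM at 79 bases and RBBP8 at 18 bases, and in the other 9 genes a peak covered a start. Outside it, FANCD2 at 445 bases was followed by FANCM at 1482 bases, where the peak (value 1.43) lay within 200 bases of a start of FKBP3. FANCG, at 3421 bases, had its nearest peak (value 1.78) at a start of VCP. RAD51D at 7520 bases and FAAP24 at 8573 bases were the next. For BRIP1, the nearest peak was a strong one (value 5.01) at a start of INTS2.

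Peaks were next placed relative to the canonical start. In homologous recombination the midpoint of the strongest start peak fell in intron 1 for 5 of 8 genes, BRCA1, NBN, XRCC2, RAD52 and BLM. In the Fanconi anaemia genes this was so for 0 of 5, of which FANCF has no intron, and in protein-coding genes with a start peak for 30.7%. The 5 midpoints lay 153 to 248 bases into intron 1, with a median of 183 bases, against 156 bases in protein-coding genes. Relative to intron length, the midpoints lay 13.2% into the 1155 bases of BRCA1 and 12.3% into the 1669 bases of NBN. In the longer introns they lay 1.20% into the 15258 bases of XRCC2, 1.501% into the 16525 bases of RAD52 and 0.601% into the 29947 bases of BLM. The median in protein-coding genes was 3.87%.

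The peaks of RAD50, RBBP8, FANCC and FANCF were centred in exon 1, and those of RAD51C, FANCA, FANCI and FAN1 upstream of the canonical start. Over the genes with a peak at the canonical start, the median midpoint was 274 bases downstream in 7 homologous recombination genes. In 5 Fanconi anaemia genes it was -81 bases, that is upstream. All 12 together had a median of 188 bases downstream, against 116 bases in protein-coding genes. Measured from the nearest annotated start, the Fanconi anaemia median turned to 40 bases downstream, with 3 of 5 genes downstream, and that of 8 homologous recombination genes was 153 bases. The 13 genes together then had a median of 100 bases downstream, against 17 bases in protein-coding genes. With so few genes these positions are a description, and their difference was not tested. For NBN the midpoint lay 347 bases downstream of the canonical start but at -78 bases, or upstream, of the nearest one.

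**Figure D2:**
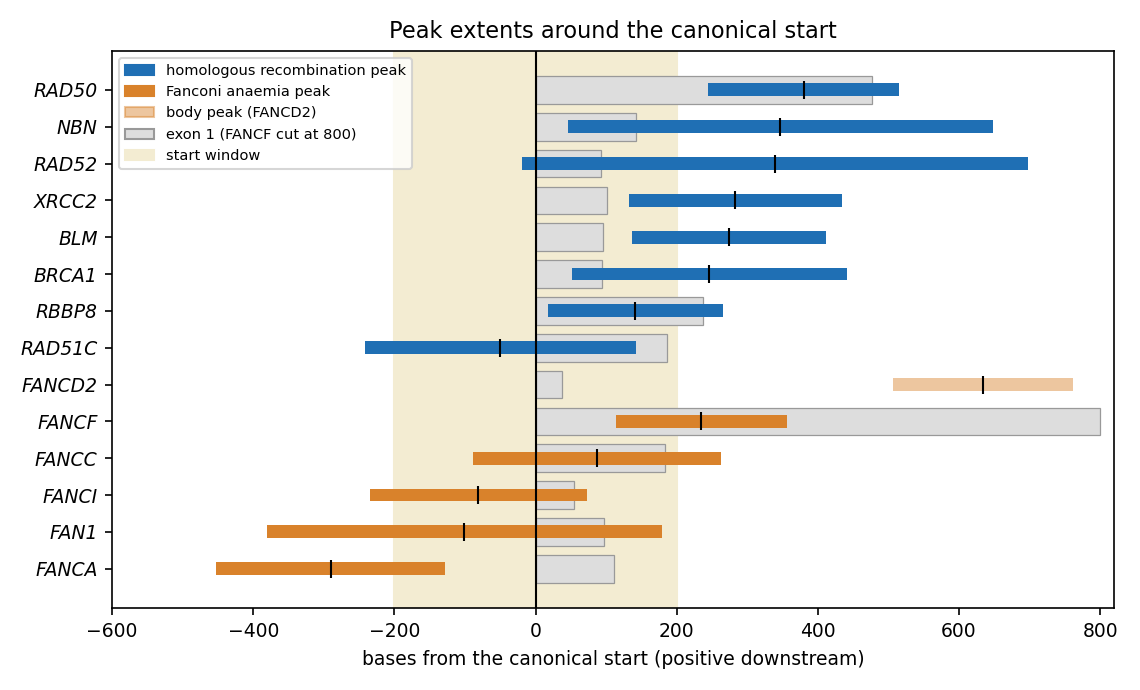
Coloured bars show the extent of each start peak in bases from the canonical start (0, positive downstream), with a black tick at the midpoint. Exon 1 is grey, the 200-base window is shaded, homologous recombination is blue and Fanconi anaemia orange. The paler orange bar is the FANCD2 body peak in intron 1, which is not a start peak. The FANCC peak at the distal start and the other body peaks are left out. Most blue bars reach past exon 1 into intron 1, as do the orange bars of FANCC, FANCI and FAN1. The bars of FANCI, FAN1, FANCA and RAD51C are centred upstream.

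Sequences from better supported peaks of each pathway, NBN aside, are shown for the kind of DNA at these peaks. They are taken from 300 bases centred on the peak in hg19, on the strand of the gene and 5′ to 3′, cut to the longest stretch outside annotated untranslated regions. Of the 14 peaks, 5 were narrower than 300 bases, and the stretches of BLM and FANCF run past the ends of their peaks. Capitals mark GGACT, a common form of the m6A consensus, GGGCGG, the core of the GC box bound by Sp1, and TGACGT, the core of the CRE bound by CREB and ATF factors, each in either orientation. The stretches of RAD52, BLM and XRCC2 lie within intron 1, and that of RAD52 holds none of these motifs.
RAD52, chr12:1058370-1058568, minus strand: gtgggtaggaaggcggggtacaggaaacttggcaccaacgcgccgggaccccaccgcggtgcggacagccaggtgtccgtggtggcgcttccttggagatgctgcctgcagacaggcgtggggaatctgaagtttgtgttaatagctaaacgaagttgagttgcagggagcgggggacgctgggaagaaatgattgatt
BLM, chr15:91260701-91261000, plus strand: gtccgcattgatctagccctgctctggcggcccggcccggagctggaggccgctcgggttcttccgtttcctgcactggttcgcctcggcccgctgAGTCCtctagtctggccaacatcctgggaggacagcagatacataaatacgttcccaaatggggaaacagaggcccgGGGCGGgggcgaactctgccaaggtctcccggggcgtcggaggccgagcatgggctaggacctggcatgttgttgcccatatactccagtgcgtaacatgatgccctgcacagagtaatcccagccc
XRCC2, chr7:152372793-152373092, minus strand: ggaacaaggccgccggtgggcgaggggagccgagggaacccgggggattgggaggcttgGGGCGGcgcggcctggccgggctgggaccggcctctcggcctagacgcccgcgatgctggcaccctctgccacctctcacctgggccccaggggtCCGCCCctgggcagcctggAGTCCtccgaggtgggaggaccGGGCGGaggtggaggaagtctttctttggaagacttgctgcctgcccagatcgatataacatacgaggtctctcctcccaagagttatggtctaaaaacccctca

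FANCA and FANCF are shown as the best supported Fanconi anaemia peaks for which at least 100 bases remained, the first upstream of the canonical start and the second within the only exon.
FANCA, chr16:89883386-89883494, minus strand: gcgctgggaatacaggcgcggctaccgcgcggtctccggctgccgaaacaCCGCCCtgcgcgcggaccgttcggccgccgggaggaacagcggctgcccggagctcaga
FANCF, chr11:22646984-22647187, minus strand: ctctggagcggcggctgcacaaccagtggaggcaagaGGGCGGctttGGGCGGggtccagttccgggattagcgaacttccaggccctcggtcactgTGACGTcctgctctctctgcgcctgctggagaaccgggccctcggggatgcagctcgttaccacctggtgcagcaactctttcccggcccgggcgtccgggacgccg

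The GC box core GGGCGG was found on either strand in the 300 bases centred on the peak for 11 of the 14 start peaks (78.6%), against 62.5% of the 2998 protein-coding start peaks. The RAD52 peak, the widest, held none in that window. GGACT was found on either strand in 7 of the 14 peaks (50%), against 46.7%. On the strand of the gene itself it was found in 1 of 14, that of FANCA (7.14%), against 27.7% of the protein-coding start peaks. The 300 bases at FANCA were centred at -290 bases from the canonical start and lay wholly upstream of it. That match is thus outside the canonical transcript. In the BLM and XRCC2 stretches above it reads AGTCC, which is GGACT on the other strand.

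TTTCCCGC is a form of the consensus of E2F factors that drive S-phase genes. It was found in the same window of 3 of the 14 peaks, RAD50, RAD51C and FANCC (21.4%), against 2.8% of the protein-coding start peaks. It was also in the 500 bases around the canonical start of XRCC2, outside the peak, and of FANCD2, FANCG and FAAP20, which had no start peak. In those promoters it was found for 6 of all 36 genes (16.7%) and for 3.13% of protein-coding genes, in 3 of 13 genes with a start peak and 3 of 23 without. TTTGGCGC, another form of that consensus, was in 0 of the 14 peaks. It was in 0 of the 36 promoters, against 1.13% of those of protein-coding genes. The TTTCCCGC matches of RAD51C, FANCC, XRCC2 and FANCD2 are set out with 10 bases on either side, in capitals. These matches read GCGGGAAA where they lie on the other strand.
RAD51C, chr17:56770042-56770069, plus strand: atttggtgagTTTCCCGCtgtctccagc
FANCC, chr9:98080020-98080047, minus strand: tcgtcggaatTTTCCCGCgacgccgcgg
FANCC, chr9:98079922-98079949, minus strand: ccgggcgaccGCGGGAAAattccaaaaa
XRCC2, chr7:152373188-152373215, minus strand: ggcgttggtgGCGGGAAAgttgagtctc
FANCD2, chr3:10068109-10068136, plus strand: gtcgggcctgGCGGGAAAgtcgaaaact

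In RAD50 the match lay within the coding part of exon 1 and overlapped a GC box core, so that both stand in 1 run of capitals.
RAD50, chr5:131893017-131893157, plus strand: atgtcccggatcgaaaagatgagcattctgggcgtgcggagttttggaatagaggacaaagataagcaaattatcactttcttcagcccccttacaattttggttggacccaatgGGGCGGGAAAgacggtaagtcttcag

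The CRE core TGACGT was in the 500-base promoters of 6 of 13 genes with a start peak (BRCA1, RBBP8, RAD51C, XRCC2, FANCC and FANCF), of 3 of 23 without (RAD51D, UBE2T and FANCD2) and of 11.3% of protein-coding genes. In the 300 bases centred on the start peaks it was in 3 of 14, those of RBBP8, RAD51C and FANCF (21.4%), against 6.77%. The RBBP8 match lay just outside its peak, and a FANCC match lay inside its peak but outside the 300 bases. In RAD51C and XRCC2, 2 matches on opposite strands overlapped in a full palindrome upstream of the canonical start, shown in part in capitals. Only in RAD51C was it inside the peak. The palindromes are given here because the same arrangement stood in both paralog genes.
RAD51C, chr17:56769923-56769948, plus strand: gctttacgtcTGACGTcacgccgcac
XRCC2, chr7:152373346-152373371, minus strand: cgcggaagtcTGACGTcacaggaact

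Of the other motifs searched on both strands in the 300 bases centred on the start peaks, CCAAT was in 3 of 14 (21.4%, against 18.5% of the 2998) and TTTGAA in 1 (7.14%, against 6.67%). CCGGAAG, the ETS core, was in none, against 14.8%, and neither were TTTGGCGC, GCGCATGC, TATAAA or ACTACAAT, each in under 5% of the 2998 peaks. The matches are not shown to be bound sites.

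Promoters of genes with and without a peak overlapped in base composition. In the 500 bases around the canonical start, the 13 genes with a start peak had a median GC content of 66.2% (57 to 75.6%) and the 23 without one 64% (47.8 to 80%). In protein-coding genes the medians were 67.8% with a start peak and 63.8% without. The ratio of observed to expected CpG had medians of 0.891 with a peak and 0.829 without in the 36 genes, and of 0.850 and 0.752 in protein-coding genes. The ranges of the members with and without a peak overlapped over most of their extent. BRCA1 had a peak with the lowest CpG ratio of the 36 (0.633), and FAAP20, with the highest GC content (80%), had none.

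**Figure D3:**
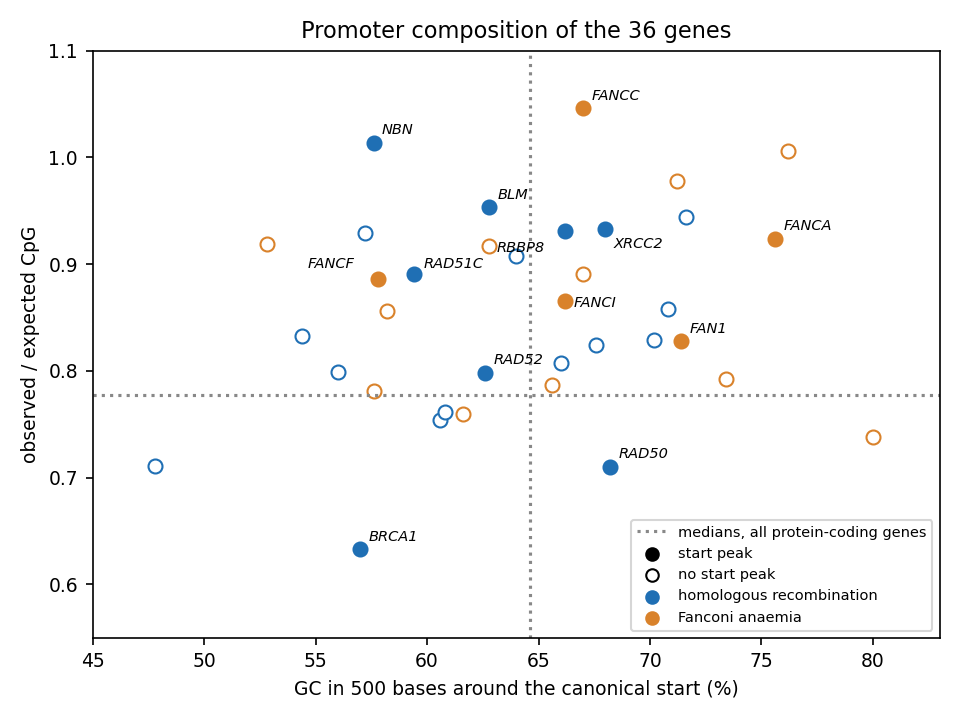
Each point is 1 of the 36 genes, placed by GC content (%) and by the ratio of observed to expected CpG in 500 bases around its canonical start, filled and named where it had a start peak and open where it had none. Filled and open points intermingle, and dotted lines mark the medians of all protein-coding genes.

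Neighbouring starts were also compared. A protein-coding gene started on the opposite strand within 1000 bases of the canonical start, on either side, in 1 of 13 genes with a start peak (RAD51C, with TEX14). The same held for 8 of 23 without one, among them BRCA2 with ZAR1L, PALB2 with DCTN5 and MRE11 with ANKRD49. In protein-coding genes the shares were 12.0% for genes with a start peak and 9.64% for genes without, and none of these differences was tested. With opposite starts of any gene type counted, they were 4 of 13 and 11 of 23 in the 36 genes, and 31.4% and 22.4% in protein-coding genes.

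The number of annotated starts also moved with the count. The 36 genes had a median of 14.5 starts, against 5 in protein-coding genes, and those with a start peak had a median of 17, against 10 in those without. Among genes with 10 or more starts, 11 of 27 had a start peak, against 24.5% of protein-coding genes. Among genes with fewer, 2 of 9 did (XRCC2 and FANCF), against 12.6%. At the canonical start alone, 12 of 36 genes (33.3%) had a peak, RAD50 being the one lost, against 11.9% of protein-coding genes. What part the number of starts had in the count of 13 was not tested.

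**Figure D4:**
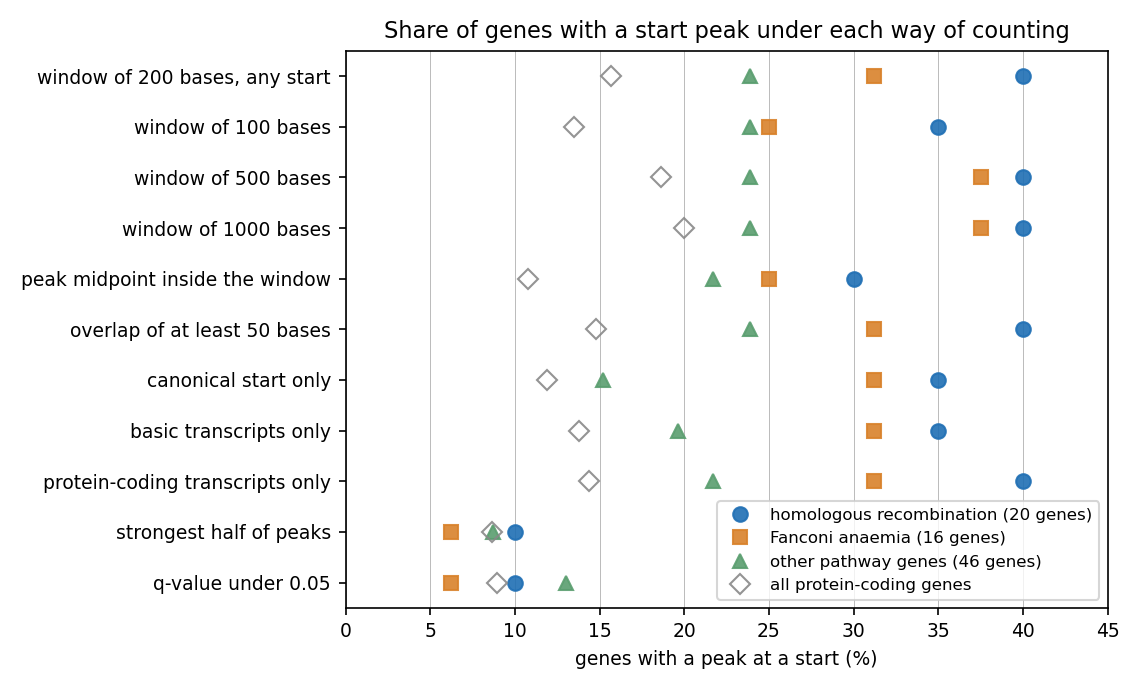
The horizontal axis gives the share of genes (%) with a start peak under each way of counting, for the 20 homologous recombination genes, the 16 Fanconi anaemia genes, 46 other genes of the same pathways and all protein-coding genes. Both gene groups lie to the right of the protein-coding share in the upper 9 ways of counting, and close to it in the lowest 2, which keep only the better supported peaks.

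Against 36.1% of the 36 genes, 11 of 46 further genes of the same pathways had a start peak (23.9%). Counted at the canonical start alone, 7 of the 46 had one (15.2%), against 33.3% of the 36 genes and 11.9% of protein-coding genes. With a q-value under 0.05 the order turned, with 8.33% of the 36 genes against 6 of 46 of the further genes (13%). The highest value was that of RTEL1, a helicase that takes apart recombination intermediates (2.95), followed by RFWD3, a ubiquitin ligase acting on the single-strand binding protein RPA (2.05), and MCM9, a helicase of recombination (1.91). RPA1, the large subunit of RPA, had 1.70, MAD2L2, a subunit of translesion polymerase zeta, 1.33, and UIMC1, which brings a BRCA1 complex to ubiquitin at breaks, 1.32. ERCC1 (1.04), FIRRM (1.00), RMI1 (0.86), SEM1 (0.81) and CENPS (0.78) had weaker peaks. The peaks of MCM9, MAD2L2, RPA1 and CENPS lay at annotated starts other than the canonical one. Their midpoints were at 40714, -10550, -454 and 573 bases from the canonical start, in that order. ERCC1, a crosslink nuclease subunit, also had 2 peaks in the gene body, and SPIDR, a scaffold of recombination, had 1 there and none at a start.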

How the data were processed

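YTHDC1 ChIP-seq was done in A549 cells in 3 replicates of 1 group. According to the methods, the authors aligned reads to hg19 with Bowtie2 (the submitters' processing notes name BWA, with deepTools and MACS2), merged the reads and ran MACS2 in its broad mode (q-value 0.1, broad cutoff 0.25). A control library is not named, and the peak names point to a merging step that is not described. The deposited value of each peak is read as −log10 of its q-value by inference: the lowest, 0.6102, lies just above 0.6021, −log10 of the broad cutoff. It was used only to describe and filter peaks.

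Starts, exons and gene spans came from GENCODE release 44 mapped to GRCh37 (hg19), and sequences from that genome. Sequences of NBN and WRN are not shown. A body peak overlapped the gene span but none of its start windows. Motifs were searched in 300 bases centred on start peaks, past the ends of narrower ones, and in 500-base promoters, the latter for 19863 protein-coding genes with a canonical start and sequence. Scripts used Python 3.11.15 and were checked on simulated peaks.

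The members and lists were chosen with earlier results of these data known. No test was made, since the set is 1 pooled sample: counts and medians stand beside those of all protein-coding genes, which are not replicates. All 36 members are named, the motifs in capitals were picked after their counts were seen, and peaks were shown by value except where untranslated regions left under 100 bases. The 46 alternatives changed windows, starts, thresholds and sequence windows.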

Additional observations from a re-analysis of the deposited data

How the results depend on the processing

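Of 46 alternatives, 37 left the value within 1.5 times the count, within 1 SD of the single peaks or genes for medians, or within the 95% exact binomial interval for the share with GGACT. Windows of 100 to 1000 bases, a larger overlap, the peak midpoint and other sets of starts were tried. Under these, 10 to 14 of the 36 genes had a start peak (27.8 to 38.9%). The share of protein-coding genes moved too, from 10.8% with the midpoint rule to 20% at 1000 bases. XRCC2 and FANCF were lost at 100 bases, BLM too once the window had to hold the midpoint, and FANCD2 was gained at 500 bases. Restricting to a q-value under 0.05 left 3 of the 36 genes, 2 of the homologous recombination genes and 1 of the Fanconi anaemia genes. The strongest 3184 of all peaks gave the same counts, 3, 2 and 1, because weaker peaks are dropped by construction. Of protein-coding genes, 8.96% had a start peak with a q-value under 0.05 and 8.64% had one among those strongest peaks. With the span of the canonical transcript in place of the gene span, 1 gene instead of 2 had a body peak, as the NBN peak lies outside that span. Median promoter GC of the genes with a start peak was 59.6% over 1000 bases, against 66.2% over 500. GGACT was in 7.14% of the start peaks, against 50%, when only the strand of the gene was read. No paired analysis was possible because the 3 replicates form 1 group and were pooled before peaks were called, and for the same reason no replicate could be left out. The counts thus carry no error between experiments, and the unknown depth sets which weak peaks were called.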
